A study of Mus musculus with 11 samples.

Results

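Potassium channel genes were examined in mouse stomach. They were taken as all genes whose symbol is Kcn, then letters, then a number, on probe sets that name a single gene, with the probe set of highest mean over the 11 arrays standing for its gene. This gave 87 of 19938 measured genes. They were 25 voltage-gated pore subunits, 10 electrically silent modifiers, 11 auxiliary subunits of voltage-gated channels and 15 inward rectifiers. The rest were 14 two-pore-domain channels, 8 pore subunits classed with the calcium- or sodium-activated channels, and 4 beta subunits of the BK channel. Within the family, the parietal cell channels and Kcne3 were chosen by their signal in these same arrays, in tumours against normal epithelium, so their values are a description, with no test.

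The arrays cover 3 groups. NGE is normal gastric epithelium of mice that lack the Cre transgene (4 arrays). pChePS_GC is gastric cancer tissue of mice with Pdx-1-Cre and the alleles Cdh1F/+, Trp53F/F and Smad4F/F (4 arrays), and pCP_GC is gastric cancer tissue of mice with Pdx-1-Cre and the alleles Cdh1F/F and Trp53F/F (3 arrays). Both cancers are labelled as diffuse type. The Cre is driven by Pdx-1, so the alleles were recombined only where that promoter was active, and cancer tissue also holds cells without recombination. The labels state no age and no stomach region. Nor do they say whether each array is a mouse of its own, and p-values cover only the spread among these samples, which may be technical. The labels call NGE epithelium and the tumours tissue. A rise of fibroblast, vessel or muscle genes therefore cannot be told apart from a difference in what was sampled. In samples of mixed cells, fewer cells of a type and less RNA per cell cannot be told apart.

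Of the floxed genes, Cdh1 read 12.94 to 13.02 in NGE, 8.73 to 11.07 in pChePS_GC and 10.52 to 12.02 in pCP_GC, and Smad4 averaged 11.09, 10.49 and 11.44 in the same order. Whether their probe sets lie in the deleted exons is not known here. The female-specific Xist averaged 12.24 in NGE against 5.85 and 5.67 in the tumour groups, and the Y-linked Eif2s3y averaged 5.08 against 10.27 and 9.31. Sex and tumour therefore cannot be told apart in any comparison with NGE. The defining parietal genes Atp4a (14.10 to 14.17) and Atp4b (13.86 to 13.93) were bright in every NGE array. In each tumour group all 8 fibroblast, 8 endothelial and 8 macrophage marker genes rose (limma, adjusted p under 0.05), and of 6 chief cell genes 6 fell in pChePS_GC and 5 in pCP_GC, against 18.7% and 20% of all genes higher and 23.4% and 31.8% lower. As a scale for dim signal, the 95th percentile over 1178 genes of olfactory and vomeronasal receptors, sensory genes of the nose, stood at 7.25 for NGE, 6.99 for pChePS_GC and 6.86 for pCP_GC. By group mean, 48 members lay above that level in all 3 groups, 11 in some but not all, and 28 in none. A difference from a group whose mean lay under that level is a lower bound where that level is background. This holds for the NGE means of Kcne3, Kcne4, Kcnj10, Kcnma1, Kcnmb1, Cftr and Lrrc55. It also holds for the tumour means of Kcnj16 and Kcne1 and, in pChePS_GC, Kcne2. All levels and differences below are log2 signal; a level is not compared between genes, since probe sets differ.

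Potassium channels let potassium ions cross a membrane down their gradient. In the parietal cell, the acid-secreting cell of the stomach, the proton pump takes up potassium from the gland lumen as it expels acid, so the apical membrane must return potassium. The pore subunit Kcnq1 with the beta subunit Kcne2 is known for that role, and inward rectifiers such as Kcnj15 and the Kcnj10 and Kcnj16 pair are also described in this cell. Kcne3 is another partner of Kcnq1, known from intestinal crypts and airway, where the pair holds a basolateral potassium current that supports chloride secretion through Cftr.

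In both tumour groups the family changed in a few members by a large amount and in many by a small one. Against NGE, Kcnj16, Kcnj15, Kcne2, Kcne1, Kcnj13 and Kcnf1 were lower by more than 2-fold in both tumour groups, and Kcne3, Kcnmb1, Kcnma1, Kcnk1, Kcng3, Kcnj8 and Kcne4 were higher by more than 2-fold in both. Of those tested, Kcnj8 did not pass in pCP_GC, nor Kcne4 in either. Kcnj16, Kcnj15, Kcne2 and Kcne3 were chosen on these arrays, so a pass of theirs is no test. In pChePS_GC 7 of the 87 members rose and 29 fell (limma, adjusted p under 0.05 over all 19938 genes), or 8.05% and 33.3%, against 18.7% and 23.4% of all genes (42.1% in either direction). In pCP_GC 6 rose and 54 fell, or 6.90% and 62.1%, against 20% and 31.8% of all genes (51.8% in either direction). The median difference over the 87 members was -0.23 in pChePS_GC and -0.41 in pCP_GC, where over all genes it was -0.10 and -0.12. Centring each array on its median moved the median of all genes by a further -0.17 and -0.21. The split in pChePS_GC was then 6 higher and 60 lower, where of all 19938 genes 2695 were higher and 9101 lower. In pCP_GC it was 5 higher and 64 lower, where of all genes 2686 were higher and 9716 lower. With quantile normalization the members split into 10 higher and 30 lower in pChePS_GC (3117 and 5045 of all genes). In pCP_GC that split was 6 and 41 (3223 and 5432 of all genes).

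Of the falls, 20 of 29 in pChePS_GC and 48 of 54 in pCP_GC were of less than 2-fold. Of the 59 members above the receptor level in at least 1 group, 7 rose and 17 fell in pChePS_GC. These are 11.9% and 28.8%, against 18.7% and 23.4% of all genes. In pCP_GC 6 of the 59 rose and 32 fell, or 10.2% and 54.2%, against 20% and 31.8% of all genes. Of the 28 members under the receptor level in every group, 0 rose and 12 fell in pChePS_GC, with a median of -0.23. In pCP_GC 0 of the 28 rose and 22 fell, with a median of -0.45. These classes were set by the same group means, so a dim member that rose past the level left the 28. The 0 rises are therefore partly fixed in advance and show nothing about dim members. The receptor genes themselves shifted the same way, by a median of -0.15 and -0.22, and 17.9% and 35.7% of them fell. At a change of at least 2-fold, 6 members rose and 9 fell in pChePS_GC, or 6.90% and 10.3%, against 6.98% and 3.34% of all genes. In pCP_GC 5 rose and 6 fell, or 5.75% and 6.90%, against 8.13% and 2.83% of all genes. These counts, like those at any size of change, include Kcnj16, Kcnj15, Kcne2 and Kcne3, which were chosen on these arrays, and support nothing about the family. Without the 8 genes chosen that way, 5 of 79 rose and 6 fell by at least 2-fold in pChePS_GC (6.33% and 7.59%). In pCP_GC 4 rose and 3 fell (5.06% and 3.80%). At any size of change, 6 of the 79 rose and 26 fell in pChePS_GC (7.59% and 32.9%). In pCP_GC 5 rose and 51 fell at any size (6.33% and 64.6%). The 2 comparisons share the NGE arrays, so likeness between them is not separate evidence.

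**Figure D1:**
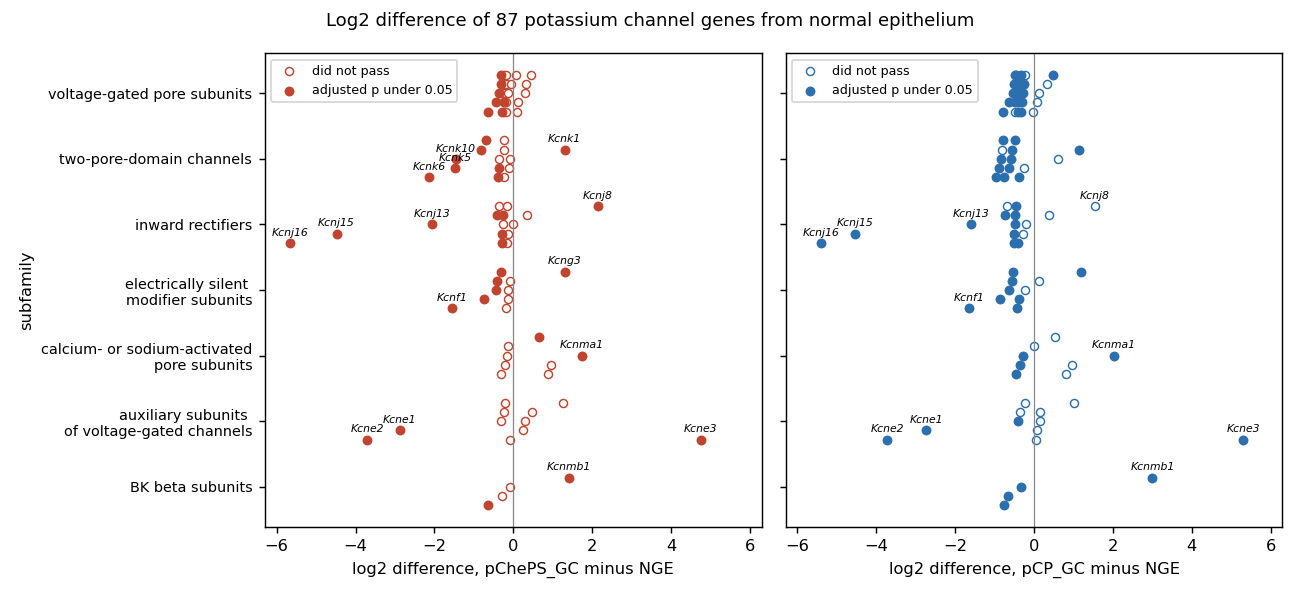
Log2 difference of each of the 87 genes from normal gastric epithelium in pChePS_GC (left) and pCP_GC (right), by subfamily. Filled points have a limma adjusted p under 0.05, which is no test for the parietal channels and Kcne3, chosen on these arrays. Genes at least 1.3 from 0 are named. Most points lie just left of 0, while Kcnj16, Kcnj15, Kcne2 and Kcne1 lie far to the left and Kcne3 far to the right in both panels.

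The parietal channels are described first, with the DNA upstream of the 3 that were lower and of Kcne3. Each line gives the 250 bases before the most upstream start in RefSeq (GRCm38.p6), and capitals mark AAGGTCA or its reverse complement, the half-site of estrogen-related receptors. It is shown because Esrrg, such a receptor and a parietal gene, was lower in the same tumours.
Kcnj16 (chr11:110967783-110968032, + strand): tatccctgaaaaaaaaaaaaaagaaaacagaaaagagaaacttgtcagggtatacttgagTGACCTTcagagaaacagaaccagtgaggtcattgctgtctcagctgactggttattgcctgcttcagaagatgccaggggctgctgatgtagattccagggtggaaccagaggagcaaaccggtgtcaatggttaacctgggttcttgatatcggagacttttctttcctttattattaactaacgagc
Kcnj15 (chr16:95257308-95257557, + strand): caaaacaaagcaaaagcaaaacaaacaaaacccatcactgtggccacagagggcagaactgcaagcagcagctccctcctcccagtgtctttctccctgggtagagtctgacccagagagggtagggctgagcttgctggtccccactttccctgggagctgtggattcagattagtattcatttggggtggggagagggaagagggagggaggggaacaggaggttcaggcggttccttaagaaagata
Kcne2 (chr16:92292139-92292388, + strand): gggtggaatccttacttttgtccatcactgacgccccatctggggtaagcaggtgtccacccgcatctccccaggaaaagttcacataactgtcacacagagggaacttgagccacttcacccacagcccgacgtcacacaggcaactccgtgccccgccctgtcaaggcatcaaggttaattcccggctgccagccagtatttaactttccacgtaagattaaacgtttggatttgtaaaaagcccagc
Kcne3 (chr7:100176420-100176669, + strand): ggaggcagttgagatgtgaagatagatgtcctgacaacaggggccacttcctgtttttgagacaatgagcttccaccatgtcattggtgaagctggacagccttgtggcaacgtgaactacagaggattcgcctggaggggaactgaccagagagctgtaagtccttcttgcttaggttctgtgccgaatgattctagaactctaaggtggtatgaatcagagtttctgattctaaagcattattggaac
The half-site stood once in the Kcnj16 window, on the reverse strand, and did not occur in the windows of Kcnj15, Kcne2 and Kcne3. The half-site was in none of the windows before the further Kcnj16 starts, which are not printed. Over all members with a window, 66 of 87, it was found in Kcnj16, Kcnf1 and Kcnh1, in 3 of 91 windows (3.30%), against 4.08% of 32851 windows of all genes. The longer TCAAGGTCA, which contains the half-site, was in 0 member windows, against 0.387% of all. The TATA box TATAAA was in 3.30% of member windows and 12.4% of all, and the GC box CCGCCC in 44.0% and 32.7%. Motifs were searched on both strands, and a match is a string of letters in these windows and nothing more.

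Kcnj16, the inward rectifier Kir5.1, which forms channels together with Kcnj10, read 11.91, 12.19, 12.20 and 11.99 in NGE. It read 6.20, 6.52, 6.32 and 6.60 in pChePS_GC and 6.61, 7.48 and 5.91 in pCP_GC. The groups did not overlap with NGE, and the mean difference was -5.66 in pChePS_GC and -5.41 in pCP_GC. Both tumour means lay under the receptor level, so where that level is background these differences are lower bounds.

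Kcnj15, the inward rectifier Kir4.2, read 12.89, 12.90, 12.86 and 12.85 in NGE, an SD of 0.03. In pChePS_GC it read 7.42, 8.69, 9.76 and 7.70, and in pCP_GC 7.44, 10.36 and 7.23. Every tumour array was lower than every NGE array, and replicate 3 of pChePS_GC and replicate 2 of pCP_GC kept the most signal. The mean difference was -4.48 in pChePS_GC (-4.94 without its replicate 3) and -4.53 in pCP_GC (-5.54 without its replicate 2). The level of 14 other parietal genes in replicate 2 of pCP_GC was 10.38, against 9.81 and 9.70 in the other pCP_GC arrays. It was 9.63 in replicate 3 of pChePS_GC, the lowest of that group. The pump gene Atp4a read 7.72, 9.17, 8.99 and 8.62 in the pChePS_GC arrays, with replicates 2 and 3 highest and replicate 1 lowest, as for Kcnj15. Its pCP_GC arrays read 7.57, 11.39 and 7.48, again with replicate 2 highest. The other pump gene, Atp4b, read 7.54, 8.46, 7.495 and 7.52 in the pChePS_GC arrays. Replicate 3, the highest for Kcnj15, was thus the lowest for Atp4b, and the order of Atp4a was not shared by both pump genes. In pCP_GC Atp4b was also highest in replicate 2, at 10.79.

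Kcne2, a single-pass beta subunit that keeps Kcnq1 open at the acid pH of the lumen, read 10.51, 10.77, 10.62 and 10.48 in NGE. It read 6.99, 6.71, 6.96 and 6.92 in pChePS_GC and 6.75, 7.07 and 6.81 in pCP_GC. The means were 10.59 ± 0.13 (SD, n = 4), 6.89 ± 0.13 (SD, n = 4) and 6.88 ± 0.17 (SD, n = 3), and the tumour arrays lay at about the receptor level.

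Kcnq1, the voltage-gated pore subunit that Kcne1, Kcne2 and Kcne3 all bind, read 11.26, 11.53, 11.53 and 11.33 in NGE. It read 10.98, 10.83, 11.66 and 11.98 in pChePS_GC and 10.95, 10.73 and 11.11 in pCP_GC. The pChePS_GC arrays lay on both sides of NGE, with a mean difference of -0.05. The pCP_GC arrays all lay below the NGE arrays, with a mean difference of -0.48. Bright signal of the pore gene was thus measured in all 11 arrays, with Kcne2 at about the receptor level in the 7 tumour arrays.

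Another 3 parietal channels were on the list. Kcnj10, the inward rectifier Kir4.1, read 6.85 to 7.30 in the NGE arrays, against 7.02 to 7.69 for pChePS_GC and 7.30 to 7.56 for pCP_GC, with overlap. Kcnj2, the strong inward rectifier Kir2.1, ranged from 7.65 to 8.29 in NGE, 7.12 to 8.19 in pChePS_GC and 6.95 to 7.66 in pCP_GC. Kcnj1, the rectifier ROMK known from kidney, lay under the receptor level in every group, with means of 6.06, 5.92 and 5.78. Of the 7 parietal channels, then, 3 were far lower in both tumour groups, and the mean differences of the other 4 ran from -0.69 to 0.39. Of these 4, Kcnj10 and Kcnj1 had NGE means of 7.04 and 6.06, under the NGE receptor level of 7.25. Where that level is background, a fall in those genes could not have been seen.

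Most parietal genes outside the channel family were lower in the tumours, like Kcnj16, Kcnj15 and Kcne2. Of 14 such genes all 14 fell in pChePS_GC and 12 fell in pCP_GC (100% and 85.7%, against 23.4% and 31.8% of all genes), with medians of -1.65 and -1.68. The pump subunits Atp4a and Atp4b differed from NGE by -5.51 and -6.14 in pChePS_GC and by -5.32 and -5.52 in pCP_GC, and Esrrg by -4.78 and -4.68. The summed level of the list, as the mean of its 14 genes, ran from 12.19 to 12.35 in NGE, 9.63 to 9.84 in pChePS_GC and 9.70 to 10.38 in pCP_GC. The part of parietal cell number in the channel values was not tested.

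Kcne3 went the other way. It read 7.45, 6.92, 6.79 and 7.10 in NGE, where its mean of 7.06 lay under the receptor level. It read 11.04, 11.62, 11.73 and 12.90 in pChePS_GC and 12.41, 12.08 and 12.61 in pCP_GC. Every tumour array was brighter than the brightest NGE array by at least 3.58, and the mean difference was 4.76 in pChePS_GC and 5.30 in pCP_GC, lower bounds in the sense given above. The tumour groups overlapped, since replicate 4 of pChePS_GC was the brightest array of all.

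Genes of anion secretion, with which Kcne3 is associated elsewhere, did not move as a group. Of 9 measured, 1 rose and 3 fell in pChePS_GC and 1 rose and 2 fell in pCP_GC, against 18.7% and 23.4%, and 20% and 31.8%, of all genes. The one that rose was the chloride channel Cftr, whose NGE mean of 6.57 was under the receptor level, with differences of 4.46 (SE 0.58, limma adjusted p = 0.000203) and 5.50 (SE 0.62, limma adjusted p = 9.65e-05). Cftr read 9.08, 11.20, 11.30 and 12.52 in pChePS_GC, so that replicate 1 was lowest and replicate 4 highest there, as for Kcne3. The mean level of the macrophage list (10.43, 11.09, 10.64 and 11.16) had the same lowest and highest arrays. So did the surface mucous gene Gkn3 (11.95, 12.85, 12.99 and 13.50), so the match is not particular to Cftr. The exchanger Slc26a6 fell by 1.78 in pChePS_GC and by 1.55 in pCP_GC (limma adjusted p = 2.87e-05 and 0.000141). The sodium-potassium-chloride cotransporter Slc12a2 fell by 0.54 in pChePS_GC (limma adjusted p = 0.017). It read 12.42 to 12.64 in NGE, 11.53 to 12.37 in pChePS_GC and 12.17 to 12.42 in pCP_GC.

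Kcne1, the beta subunit that slows Kcnq1 in heart and inner ear, read 9.37, 10.12, 9.23 and 9.10 in NGE. Its pChePS_GC arrays read 6.51, 6.62, 6.70 and 6.48, its pCP_GC arrays 6.40, 7.001 and 6.78. The groups did not overlap with NGE. Kcne1 fell by 2.88 in pChePS_GC (SE 0.21, limma adjusted p = 3.8e-06), and for pCP_GC it dropped by 2.73 (SE 0.22, limma adjusted p = 1.16e-05). Both tumour means were under the receptor level. Kcne4, an inhibitory beta subunit, was picked out after its values were seen. It read 7.01, 7.01, 7.30 and 7.06 in NGE arrays, 7.83, 7.76, 10.48 and 7.40 in pChePS_GC arrays, and 7.33, 8.87 and 8.11 in pCP_GC arrays. All 7 tumour arrays lay above NGE, but the differences of 1.27 and 1.01 did not pass (limma adjusted p = 0.0988 and 0.199). Without replicate 3 of pChePS_GC, which held the value of 10.48, the difference was 0.57 in that group (limma adjusted p = 0.139), while the 1.01 of pCP_GC then passed (limma adjusted p = 0.0156). The pCP_GC difference also passed with only the 2 groups in the fit (limma adjusted p = 0.0215), and the pChePS_GC difference with array weights (1.19, limma adjusted p = 0.0471). The remaining 7 auxiliary genes, of the Kcnab and Kcnip types, differed from NGE by -0.41 to 0.47.

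**Figure D2:**
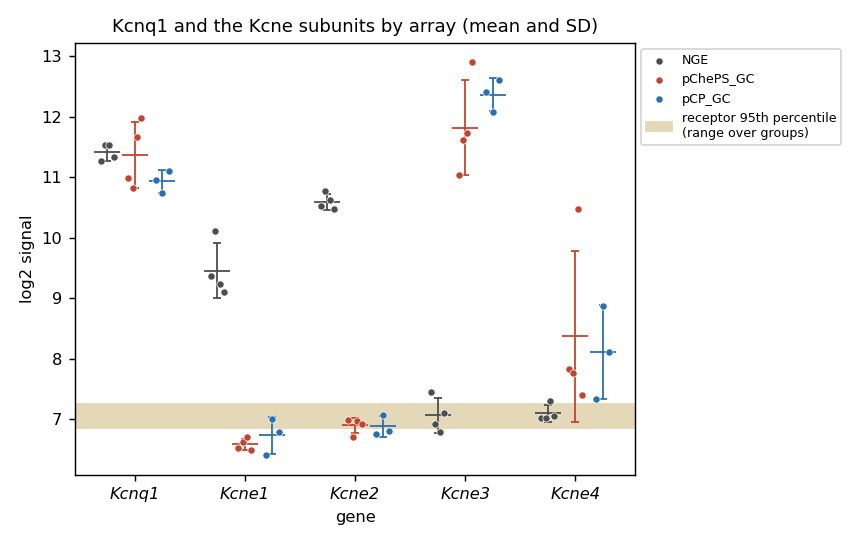
Log2 signal of Kcnq1 and 4 Kcne genes in each array, with the mean and SD of each group; the band spans the receptor 95th percentile of the 3 groups. Kcnq1 is bright in all groups, Kcne2 drops from NGE to about the band and Kcne1 to the band or below it in both tumour groups, and Kcne3 rises from the band to between 11.04 and 12.90.

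Among the other inward rectifiers, the channels of a single Kcnj pore that set resting potential, Kcnj13 fell and Kcnj8 was higher. Kcnj13, or Kir7.1, a rectifier of transporting epithelia, read 9.41, 9.74, 9.61 and 9.22 in NGE arrays, 7.08, 7.06, 7.11 and 8.53 in pChePS_GC arrays, and 7.95, 8.51 and 7.24 in pCP_GC arrays. It fell by 2.05 in pChePS_GC (SE 0.35, limma adjusted p = 0.00114) and by 1.59 in pCP_GC (SE 0.38, limma adjusted p = 0.00549), with replicate 4 of pChePS_GC apart from the other 3. Over the 15 rectifiers 1 rose and 7 fell in pChePS_GC and 0 rose and 10 fell in pCP_GC, with medians of -0.27 and -0.49. The rises are 6.67% and 0% of the rectifiers, against 18.7% and 20% of all genes. The falls are 46.7% and 66.7% of them, against 23.4% and 31.8% of all genes, and include Kcnj15 and Kcnj16.

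Kcnj8, the Kir6.1 pore of the ATP-sensitive channel of vascular mural cells, read 8.66, 8.10, 8.73 and 8.83 in NGE. It read 9.73, 10.26, 12.26 and 10.63 in pChePS_GC and 9.04, 11.68 and 9.63 in pCP_GC. All tumour arrays lay above NGE. The rise in pChePS_GC was 2.14 (SE 0.60, limma adjusted p = 0.0168), and 1.63 without its replicate 3 (limma adjusted p = 0.033). The difference of 1.54 in pCP_GC did not pass (limma adjusted p = 0.0667). It was 0.76 without replicate 2 of that group (limma adjusted p = 0.294), and it passed without replicate 1 of pCP_GC (2.08, limma adjusted p = 0.0319), without replicate 3 of pChePS_GC (limma adjusted p = 0.0305) and with only the 2 groups in the fit (limma adjusted p = 0.0378). Abcc9, the sulfonylurea receptor that joins Kcnj8, read 7.19 to 7.37 in NGE arrays, 9.41, 9.82, 11.70 and 10.04 in pChePS_GC arrays, and 8.95, 11.49 and 9.33 in pCP_GC arrays. The brightest array of each tumour group was the same for both genes. Abcc9 rose by 2.98 in pChePS_GC (limma adjusted p = 0.00222) and by 2.66 in pCP_GC (limma adjusted p = 0.00478).

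**Figure D3:**
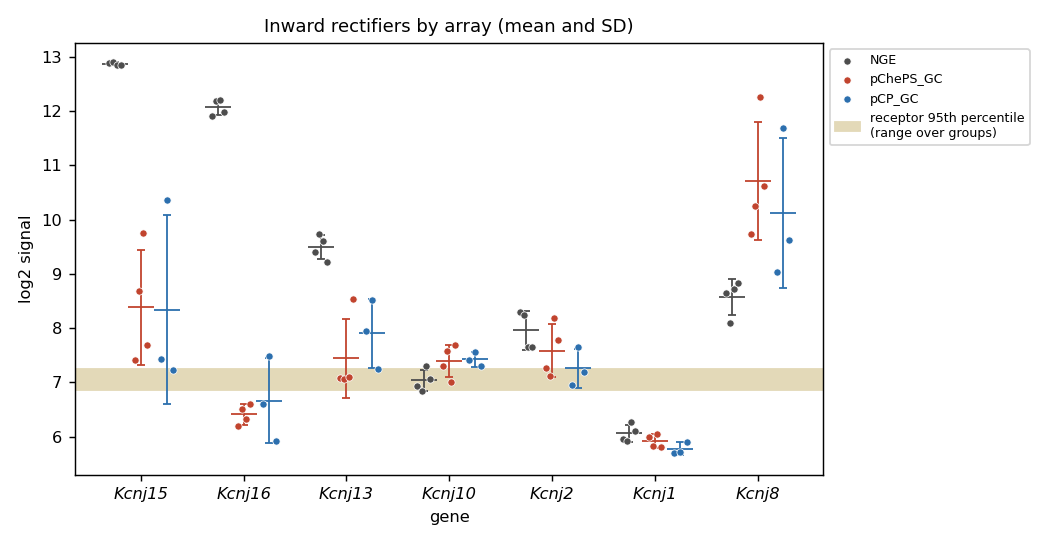
Log2 signal of 7 inward rectifier genes in each array, with the mean and SD of each group; the band spans the receptor 95th percentile of the 3 groups. Kcnj15 and Kcnj16 lie near 12 to 13 in NGE and below 11 in every tumour array, Kcnj13 is lower in the tumours, Kcnj10 lies close to the band and Kcnj1 below it, and Kcnj8 is above NGE in every tumour array.

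Two-pore-domain channels, the leak channels that join a pair of pore domains in each subunit, moved in both directions. Of 14 genes, 1 rose and 7 fell in pChePS_GC (7.14% and 50%, against 18.7% and 23.4% of all genes), and 1 rose and 10 fell in pCP_GC (7.14% and 71.4%, against 20% and 31.8%). Kcnk1, known as TWIK-1, read 10.86, 10.69, 10.53 and 10.61 in NGE arrays, 12.17, 12.11, 11.73 and 11.90 in pChePS_GC arrays, and 11.89, 11.75 and 11.82 in pCP_GC arrays. It rose by 1.30 (SE 0.11, limma adjusted p = 1.33e-05) and by 1.15 (SE 0.12, limma adjusted p = 6.01e-05), with tight replicates and no overlap with NGE.

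Kcnk6, known as TWIK-2, fell. It read 11.80, 11.73, 11.65 and 11.78 in NGE arrays, 9.87, 10.22, 9.02 and 9.32 in pChePS_GC arrays, and 11.06, 10.69 and 10.84 in pCP_GC arrays, so that the 3 groups lay apart from each other. Kcnk6 fell by 2.13 in pChePS_GC (SE 0.22, limma adjusted p = 4.24e-05), and for pCP_GC it dropped by 0.88 (SE 0.24, limma adjusted p = 0.0103). Kcnk6 differed by -1.25 from pCP_GC to pChePS_GC (95% interval -1.77 to -0.73), which missed the threshold (limma adjusted p = 0.06). It passed without replicate 2 of pChePS_GC (-1.46, limma adjusted p = 0.0167), with array weights (limma adjusted p = 0.0254) and with quantile normalization (limma adjusted p = 0.048). Over all settings its adjusted p ran from 0.0167 to 0.297.

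Kcnk10, the stretch- and lipid-sensitive TREK-2, read 10.90, 10.65, 10.61 and 10.74 in NGE arrays, 9.35, 9.39, 8.002 and 10.32 in pChePS_GC arrays, and 10.34, 9.54 and 9.85 in pCP_GC arrays. It fell by 1.46 in pChePS_GC (SE 0.38, limma adjusted p = 0.0124), where the 4 arrays were widely spread. The difference of -0.82 in pCP_GC did not pass (limma adjusted p = 0.118), though every pCP_GC array lay below NGE. It passed with only the 2 groups in the fit (limma adjusted p = 0.00545), without replicate 3 of pChePS_GC (limma adjusted p = 0.0192) and with median centring (-1.03, limma adjusted p = 0.0489). Kcnk5 (TASK-2) and Kcnk3 (TASK-1), acid-sensitive leak channels picked out after their values were seen, fell in both. Kcnk5 fell by 1.48 in pChePS_GC (limma adjusted p = 9.32e-05) and by 0.97 in pCP_GC (limma adjusted p = 0.00186), and Kcnk3 by 0.82 (limma adjusted p = 0.000349) and 0.78 (limma adjusted p = 0.000781). Kcnk2, or TREK-1, read 7.28 to 7.62 in NGE and 7.18 to 7.60 in pChePS_GC, but 7.27, 9.40 and 7.56 in pCP_GC, so that its difference from NGE of 0.62 in pCP_GC (limma adjusted p = 0.209) became -0.04 without replicate 2.

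**Figure D4:**
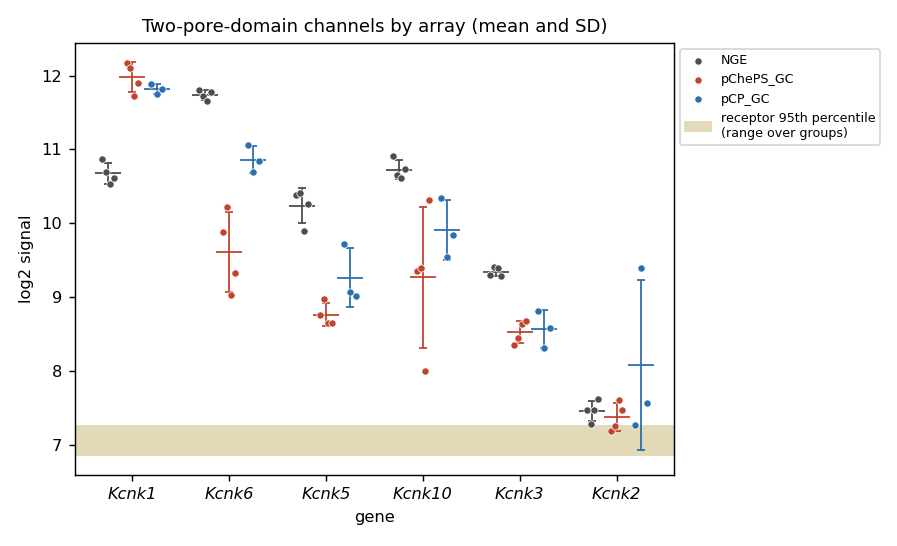
Log2 signal of 6 two-pore-domain channel genes in each array, with the mean and SD of each group; the band spans the receptor 95th percentile of the 3 groups. Kcnk1 is higher in all tumour arrays than in NGE, Kcnk6, Kcnk5, Kcnk10 and Kcnk3 are lower, and Kcnk2 stands out in a single pCP_GC array at 9.40.

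BK channels, opened by calcium and depolarization, are built from the pore Kcnma1 and, in smooth muscle, the beta subunit Kcnmb1. Kcnma1 read 7.22, 6.79, 7.01 and 6.87 in NGE arrays, 8.38, 8.62, 9.72 and 8.09 in pChePS_GC arrays, and 8.09, 10.76 and 8.12 in pCP_GC arrays, with every tumour array above NGE. It rose by 1.73 in pChePS_GC (SE 0.54, limma adjusted p = 0.0271) and by 2.02 in pCP_GC (SE 0.59, limma adjusted p = 0.015). The pChePS_GC call was lost without NGE replicates 2, 3 or 4 (limma adjusted p = 0.0541, 0.0584 and 0.0615) and without pChePS_GC replicates 2 (limma adjusted p = 0.0524) or 3 (1.39, limma adjusted p = 0.0647). Over all settings that adjusted p ran from 0.00142 to 0.0647. Without replicate 2 of pCP_GC the rise in that group was 1.13 (limma adjusted p = 0.0301).

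Kcnmb1 read 6.53, 6.79, 6.63 and 6.79 in NGE arrays, 7.14, 8.55, 8.79 and 7.93 in pChePS_GC arrays, and 9.88, 9.42 and 9.77 in pCP_GC arrays. The 3 groups did not overlap, and the NGE means of both Kcnmb1 (6.69) and Kcnma1 (6.97) were under the receptor level. Kcnmb1 rose by 1.42 in pChePS_GC (SE 0.29, limma adjusted p = 0.00373) and by 3.00 in pCP_GC (SE 0.32, limma adjusted p = 5.98e-05). pChePS_GC lay below pCP_GC, by -1.59 (95% interval -2.29 to -0.88, limma adjusted p = 0.0711). It passed with array weights (limma adjusted p = 0.0218) and without pChePS_GC replicates 1 (limma adjusted p = 0.0446) or 3 (limma adjusted p = 0.0283). Over all settings this adjusted p ran from 0.0218 to 0.297.

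Markers of muscle and vessel wall moved with these genes. Of 10 smooth muscle genes 8 rose in each tumour group (80%, against 18.7% and 20% of all genes), and the mean level of the list was 8.08 to 8.13 over NGE arrays, 8.88, 10.85, 11.24 and 9.79 in pChePS_GC, and 10.05, 10.92 and 10.10 in pCP_GC. Of 6 pericyte genes 4 rose in pChePS_GC, and 3 rose and 1 fell in pCP_GC (66.7% and 50% higher); the list's level ran from 7.18 to 7.37 for NGE, 8.60 to 9.03 in pChePS_GC and 8.43 to 8.79 in pCP_GC. Replicate 3 of pChePS_GC and replicate 2 of pCP_GC had the highest level of both lists in their groups, and also the highest Kcnma1, Kcnj8 and Kcne4. The fibroblast (11.96 and 12.02) and endothelial (10.68 and 10.16) lists were highest in the same arrays, so the match is not particular to muscle and vessel wall. The macrophage list was highest in replicate 2 of pCP_GC but not in replicate 3 of pChePS_GC. Kcnmb1 was highest in replicate 3 of pChePS_GC but lowest in replicate 2 of pCP_GC. The part of these cells in the channel values was not tested.

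**Figure D5:**
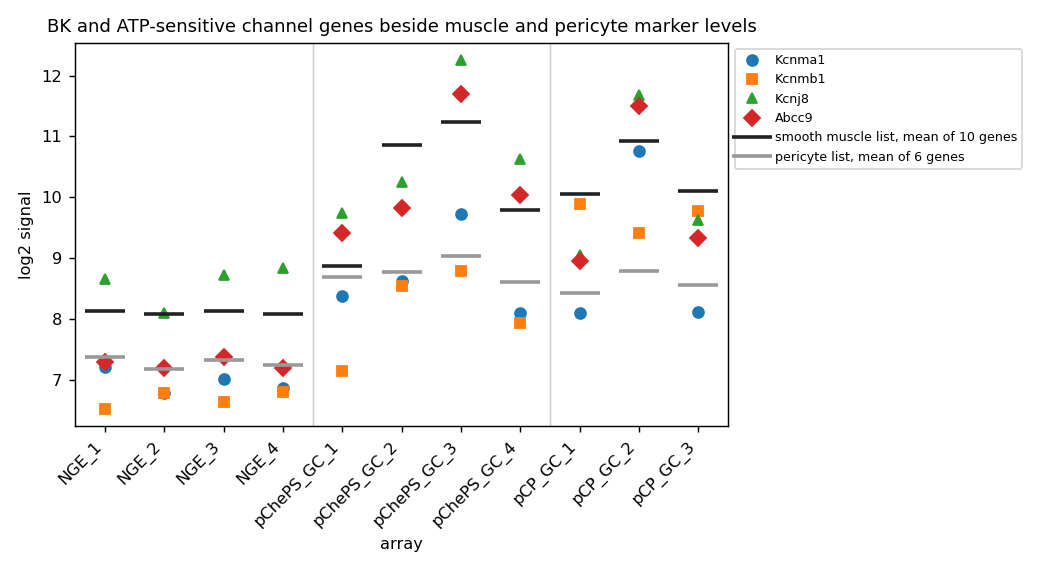
Log2 signal of Kcnma1, Kcnmb1, Kcnj8 and Abcc9 in each of the 11 arrays (points) beside the mean level of a smooth muscle and a pericyte marker list (bars). All lie higher in the tumour arrays than in NGE, and pChePS_GC_3 and pCP_GC_2 are the brightest of their groups for Kcnma1, Kcnj8, Abcc9 and both lists.

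The other calcium- or sodium-activated channels changed less. Kcnn4, the intermediate-conductance channel of epithelia and leukocytes, read 11.31, 10.93, 10.85 and 11.13 in NGE arrays, 11.30, 11.99, 11.63 and 11.91 in pChePS_GC arrays, and 11.97, 10.90 and 11.89 in pCP_GC arrays, with overlap. It rose by 0.65 in pChePS_GC (SE 0.24, limma adjusted p = 0.0459), a call lost without any 1 of NGE replicates 1 to 4 (limma adjusted p = 0.0547, 0.0904, 0.114 and 0.0789) or pChePS_GC replicates 2 to 4 (limma adjusted p = 0.116, 0.0653 and 0.0936), with median centring (limma adjusted p = 0.112) and with the replicate number as a block (limma adjusted p = 0.0787). Over all settings it ran from 0.00937 to 0.116. In pCP_GC the difference of 0.53 did not pass (limma adjusted p = 0.104), and without replicate 2, its dimmest array, 0.87 did (limma adjusted p = 0.00725), as did 0.72 with array weights (limma adjusted p = 0.00379). Over these 8 pore genes 2 rose and 0 fell in pChePS_GC (25% and 0%, against 18.7% and 23.4% of all genes), and 1 rose and 3 fell in pCP_GC (12.5% and 37.5%, against 20% and 31.8%). Of 10 partner genes outside the Kcn symbols, 1 rose and 3 fell in pChePS_GC (10% and 30%) and 2 rose and 4 fell in pCP_GC (20% and 40%), against those same shares of all genes. One of them, the BK partner Lrrc55, rose by 1.86 in pCP_GC (limma adjusted p = 0.0016), where replicate 2 was again brightest at 10.08.

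The voltage-gated pores, the largest subfamily and the repolarizing channels of nerve and muscle, changed little in size. Of 25 genes, 15 lay above the receptor level in at least 1 group and 10 in none. In pChePS_GC 0 rose and 7 fell (28%, near the 23.4% of all genes), and in pCP_GC 1 rose and 18 fell (72%, against 31.8% of all genes). The medians were -0.21 and -0.38, and none of the 25 changed by 2-fold. The largest fall was in Kcnc2, of the fast Kv3 type, which fell by 0.64 in pChePS_GC (limma adjusted p = 0.00155) and by 0.79 in pCP_GC (limma adjusted p = 0.000689). Its means of 6.78, 6.14 and 5.99 all lay under the receptor level, so these are changes in dim signal. Kcnh2, the ERG channel of heart, read 8.09 to 8.26 in NGE arrays, 8.18 to 8.47 in pChePS_GC arrays, and 8.48, 9.16 and 8.30 in pCP_GC arrays. It rose by 0.47 in pCP_GC (SE 0.18, limma adjusted p = 0.0426), but by 0.21 without replicate 2 (limma adjusted p = 0.149), and by 0.26 with median centring and 0.23 with quantile normalization (limma adjusted p = 0.162 and 0.234). The call was also lost without any 1 of the 4 NGE replicates (limma adjusted p = 0.0638 to 0.085), without pChePS_GC replicates 2 or 4 (limma adjusted p = 0.0529 and 0.0515), with 2 groups fitted (limma adjusted p = 0.0606), without the dimmest 50% of genes (limma adjusted p = 0.0504) and with the replicate block (limma adjusted p = 0.078). Its difference in pChePS_GC of 0.10 was -0.07 under both of these scalings.

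Silent modifiers form no channel alone and alter Kcnb pores. Of 10, 1 rose and 5 fell in pChePS_GC (10% and 50%, against 18.7% and 23.4% of all genes), and 1 rose and 7 fell in pCP_GC (10% and 70%, against 20% and 31.8%). Kcnf1 read 8.87, 9.14, 8.03 and 8.94 in NGE, 7.04 to 7.31 in pChePS_GC and 7.04 to 7.16 in pCP_GC. It fell by 1.55 (SE 0.20, limma adjusted p = 0.00018) and by 1.64 (SE 0.21, limma adjusted p = 0.000237). Kcng3 read 7.87, 7.78, 7.17 and 7.95 in NGE arrays, 8.79, 9.13, 10.10 and 7.97 in pChePS_GC arrays, and 8.997, 8.98 and 8.65 in pCP_GC arrays. It rose by 1.30 (SE 0.36, limma adjusted p = 0.0166) and by 1.18 (SE 0.39, limma adjusted p = 0.0273), with the dimmest tumour array only 0.02 above the brightest NGE array. Both calls were lost without NGE replicate 3 (limma adjusted p = 0.0526 and 0.0746). The pCP_GC call was also lost without pCP_GC replicates 1 (limma adjusted p = 0.0745) or 2 (limma adjusted p = 0.0752), with quantile normalization (limma adjusted p = 0.0699) and with the replicate number as a block (limma adjusted p = 0.0883).

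The tumour groups differ in a floxed Smad4 and in the number of floxed Cdh1 alleles. Between them 0 of 87 members passed (limma, adjusted p under 0.05), against 0.366% of all genes (0.115% higher and 0.251% lower in pChePS_GC). The median difference over the members, pChePS_GC minus pCP_GC, was 0.15, and over all genes 0.04. The 4 largest differences were those of Kcnmb1 (-1.59) and Kcnk6 (-1.25), given above, and of Kcnk2 (-0.70, 95% interval -1.57 to 0.17, limma adjusted p = 0.389) and Kcnk10 (-0.64, 95% interval -1.55 to 0.27, limma adjusted p = 0.445). A miss of the threshold with 4 and 3 arrays does not show that the groups were alike. The rule-named genes overlapped between the tumour groups: Kcne3 averaged 11.82 ± 0.78 (SD, n = 4) and 12.36 ± 0.27 (SD, n = 3), Kcnj16 6.41 ± 0.18 and 6.67 ± 0.78, and Kcnj15 8.39 ± 1.06 and 8.34 ± 1.75.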

How the data were processed

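RNA of 11 mouse stomach samples was read on Affymetrix arrays with a biotin label. The authors deposited 1 value per probe set and array, taken here as log2 signal from its range of 2.88 to 14.6. The submitters' processing notes name Affymetrix Expression Console. Its version and algorithm, and the genome build, are not given in the sources used. Of 35556 probe sets, 21789 name 1 gene symbol, 1621 several and 12146 none; 21698 of the 1-symbol probe sets matched RefSeq (GRCm38.p6) by gene number. Array medians ran from 7.63 to 7.81. Precision is limited by how many arrays each group has.

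Group means of all 11 arrays were fitted with limma 3.58.1 in R 4.3.3, so a shared spread enters each comparison; p-values are two-sided, Benjamini-Hochberg adjusted over 19938 genes. No dim gene was left out. Simulated arrays held 19938 genes with 200 changed. There 2-fold changes were recovered in 84% (pChePS_GC against NGE), 70% (pCP_GC against NGE) and 68% (between tumours). Changes of 1.5-fold were recovered in 45%, 39% and 42%, and 5.84%, 9.17% and 4.35% of calls were false. In the data 42.1% and 51.8% of genes passed against NGE, far more than were changed in the simulation, so its rates need not hold there. Named members are the parietal channels and Kcne3, the 6 largest rises and falls against NGE that passed without overlap between groups, the 4 largest differences between tumours, the 5 of highest mean signal in NGE (a choice of names, not a comparison of levels) and the largest change of each subfamily. Kcne4, Kcnk3 and Kcnk5 were added after their values were seen. Members, lists and motifs were chosen with earlier results of these data known. Of non-members, up to 3 a list were to be named; Slc12a2 was added as background. Alternatives changed the groups fitted, variance prior, scaling, dim-gene filter, probe set summary, array weights, replicate block, thresholds and each array left out. Sequences are RefSeq's (GRCm38.p6).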

Additional observations from a re-analysis of the deposited data

Results flagged for a closer look

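Over the 50 sets of 4 arrays examined, for 25 named genes in NGE and pChePS_GC, 3 held an array far from the other 3, where chance gives about 1 in 20. Kcnj13 read 8.53 in replicate 4 of pChePS_GC, against 7.06 to 7.11 in the others. Kcne4 read 10.48 in replicate 3 of pChePS_GC, against 7.40 to 7.83, and 7.30 in replicate 3 of NGE, against 7.01 to 7.06.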

How the results depend on the processing

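The count of members that passed in pChePS_GC against NGE was 36, and it moved to 66 with median centring, 17 at an adjusted p under 0.01, 15 at 2-fold or more and 13 without the dimmest 50% of genes. With array weights it was 51, within 1.5 times. In pCP_GC against NGE it was 60, and 11 at 2-fold or more and 12 without the dimmest 50% of genes, which leaves 18 members. Between tumours it was 0, and 1 with quantile normalization and 2 with array weights. Leaving out an array in turn gave 25 to 42, 48 to 65 and 0 to 1 members in the 3 comparisons. Replicate numbers are shared between groups. Deviations of same-numbered arrays from their group means had correlations of -0.155 to 0.156, with no other pairs set beside them. Whether these arrays share more than a number, such as a batch, cannot be decided from this. With the replicate number as a block the counts were 38, 53 and 0. Of 25 named genes in 3 comparisons under 21 settings, 1464 values kept direction and side of the threshold, or moved by under 1 SD for the untested genes, 32 calls were lost, 17 gained and 9 untested values moved. All 14 sign changes were of differences that had not passed: Kcnma1 between tumours (0.27 with array weights, 0.60 without pCP_GC replicate 2, and -0.74 to 0.60 over arrays left out), Kcng3 between tumours (-0.25 without pChePS_GC replicate 3, up to 0.46), Kcnh2 in pChePS_GC (-0.0701 with centring, -0.0712 with quantile normalization), Kcnf1 between tumours (-0.00872 with quantile normalization), Kcnk2 in pCP_GC (-0.0412 without pCP_GC replicate 2, up to 1.02), Kcnn4 between tumours (-0.0656 with array weights, -0.22 without pCP_GC replicate 2, up to 0.32), Kcne4 between tumours (-0.44 without pChePS_GC replicate 3, -0.13 without pCP_GC replicate 1, up to 0.65) and Kcnk3 between tumours (0.00975 with quantile normalization, 0.0187 without pChePS_GC replicate 1, 0.0837 without pCP_GC replicate 1, down to -0.17). The cause was not tested.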

Other observations

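Kcnu1, Kcnt2 and Kcna3, members outside the naming rule, were picked out after their values were seen, and the first pair did not pass against NGE. Kcnu1, a sperm channel, read 6.94 to 7.65 in NGE. Its pChePS_GC arrays read 9.48, 8.58, 7.87 and 7.07, its pCP_GC arrays 8.40, 7.86 and 8.79. Kcnt2, a sodium-activated channel, read 5.45 to 5.82 in NGE. Its pChePS_GC arrays read 6.23, 7.80, 6.76 and 5.64, its pCP_GC arrays 6.15, 6.72 and 6.56. The differences were 0.87 and 0.97 for Kcnu1 (limma adjusted p = 0.118 and 0.0983) and 0.95 and 0.82 for Kcnt2 (limma adjusted p = 0.0563 and 0.101). Kcna3, the Kv1.3 channel of T cells, read 8.28 to 8.55 in NGE, 8.33 to 8.64 in pChePS_GC and 8.11 to 8.19 in pCP_GC, where it fell by 0.27 (limma adjusted p = 0.0389). Of 6 measured T cell markers 0 rose and 1 fell in each tumour group, or 0% and 16.7%. Of all genes, 18.7% rose and 23.4% fell in pChePS_GC, and 20% and 31.8% in pCP_GC.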
